A study of Mus musculus with 23 samples.

Results

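The neuropeptide precursors described here are 10 genes chosen by name, Sst, Npy, Cort, Penk, Pdyn, Pnoc, Tac1, Cck, Vip and Crh, out of 45706 gene IDs in the count table. Each symbol matched 1 Ensembl gene, and all 10 passed the filter on low counts. Polyadenylated RNA from mouse hippocampus was sequenced in 23 libraries from 3 populations of neurons, which the sample titles call CamK, Grik and SST. CamK and Grik samples were labelled as pyramidal excitatory cells and SST samples as interneurons positive for somatostatin. Each population came in 2 genotypes, Slm2 wild type (WT) and Slm2 conditional knockout (cKO). Slm2, with the gene symbol Khdrbs3, encodes a protein that binds RNA and regulates splicing. The study compared expression between the genotypes in each population. There were 4 CamK WT, 3 CamK cKO, 4 Grik WT, 4 Grik cKO, 4 SST WT and 4 SST cKO libraries, called here by population, genotype and the number in the sample title. The drivers used to mark the cells, the way the cells were isolated, the deleted exons, and the age and number of the mice are not given in the sources used here. Nothing in the labels says that replicates came from separate animals, so p-values measure only the spread between these libraries.

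Neuropeptides are made as long precursors, sorted into dense-core vesicles, cut by prohormone convertases and released on strong activity to act on G protein-coupled receptors. In the hippocampus most precursors are made by GABAergic interneurons, whose classes are named after them, while Cck is also made by pyramidal cells and Penk and Pdyn by dentate granule cells. Sst encodes somatostatin and Cort the related peptide cortistatin, which binds somatostatin receptors. Npy encodes neuropeptide Y. Penk, Pdyn and Pnoc are the opioid family precursors of the enkephalins, the dynorphins and nociceptin, Tac1 encodes substance P and neurokinin A, and Cck, Vip and Crh encode cholecystokinin, vasoactive intestinal peptide and corticotropin-releasing hormone.

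Transcription of several of these genes is known to respond to cyclic AMP through the response element (CRE), so the sequence upstream of the start is shown for 4 members that hold letters of this element and stand at contrasting levels in the populations. The 8-base palindrome TGACGTCA was searched with its 5-base part TGACG on both strands in windows of 300 bases, from 250 before to 50 after each RefSeq start (GRCm38.p6), and every TGACGTCA therefore also holds TGACG. RefSeq promoters were matched for 7 members, with 2 starts for Pdyn. The 250 bases before the start are given 5′ to 3′ on the strand of the gene, with matches in capitals (CGTCA is TGACG on the other strand).
Sst, chr16:23890845-23891094, minus strand: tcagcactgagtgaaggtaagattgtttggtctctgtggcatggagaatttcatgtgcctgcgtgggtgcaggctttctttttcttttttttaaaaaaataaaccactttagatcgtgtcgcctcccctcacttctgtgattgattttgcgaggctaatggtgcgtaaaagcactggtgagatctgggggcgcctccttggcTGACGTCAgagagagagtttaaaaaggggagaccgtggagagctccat
Cort, chr4:149126764-149127013, minus strand: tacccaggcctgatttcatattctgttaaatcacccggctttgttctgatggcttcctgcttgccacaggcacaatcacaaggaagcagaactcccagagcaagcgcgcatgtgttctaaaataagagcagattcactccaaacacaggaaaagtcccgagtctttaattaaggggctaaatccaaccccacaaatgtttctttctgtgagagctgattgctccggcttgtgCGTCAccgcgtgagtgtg
Cck, chr9:121495695-121495944, minus strand: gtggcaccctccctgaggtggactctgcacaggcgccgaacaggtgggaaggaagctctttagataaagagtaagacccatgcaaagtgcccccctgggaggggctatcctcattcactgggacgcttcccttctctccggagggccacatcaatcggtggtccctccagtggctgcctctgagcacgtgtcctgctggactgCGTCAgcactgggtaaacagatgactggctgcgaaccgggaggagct
Vip, chr10:5638968-5639217, plus strand: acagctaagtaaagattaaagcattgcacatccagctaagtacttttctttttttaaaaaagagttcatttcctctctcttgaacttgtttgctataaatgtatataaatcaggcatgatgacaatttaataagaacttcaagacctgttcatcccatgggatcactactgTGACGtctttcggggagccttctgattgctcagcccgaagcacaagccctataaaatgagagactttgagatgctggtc
TGACGTCA was found in 1 of the 7 member genes, Sst, 48 bases before its start, and in 588 of 32851 promoters in all (1.79%). The shorter TGACG was found in 5 of the 7, Sst, Cort, Tac1, Cck and Vip, and in 6837 of the 32851 promoters (20.8%). A match is a match of letters only. For Npy and Pdyn these letters were not in the windows searched.

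Each library held 87612006 to 112993538 reads in genes (median 91378465), of which the 10 precursors took 0.0263 to 0.327%. The summed level of 10 GABAergic markers (Gad1, Gad2, Slc32a1 and Dlx1 among them), in TMM-scaled counts per 1000000 reads (CPM), was 5161 to 7463 in SST libraries, while CamK held 51.8 to 171 and Grik 69.7 to 118. That of 10 pyramidal cell markers, led by Camk2a and Slc17a7, reached 8196 to 9644 in CamK and 8832 to 10406 in Grik, with 902 to 1357 in SST. No gene of either list was at 0 in any library. Total Khdrbs3 stood at 249.0 to 293.5 CPM in the CamK libraries labelled cKO against 356 to 413 in WT, and at 82.6 to 106 against 123 to 139.8 in SST, but at 396 to 439 against 327 to 347 in Grik (edgeR adjusted p 0.114, 0.0309 and 0.499). Khdrbs2, the gene of its relative SLM1, was higher in the libraries labelled cKO in CamK and Grik (log2 1.52, SE 0.13, and 2.17, SE 0.13), with 0.58 (SE 0.12, adjusted p 0.300) in SST. In Grik the Khdrbs3 total goes against the label, and "libraries labelled cKO" refers to the label throughout.

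Counts of precursors that differed between populations are given beside the share of all genes, and are not read as a trait of the precursors. Sst, which defines the SST population, is among those counted for SST. In WT libraries, 7 of the 10 precursors differed between SST and CamK, where 60.1% of the 18823 genes tested did. Of these, 6 were higher in SST, namely Npy, Cort, Sst, Tac1, Crh and Pnoc, by log2 fold changes of 5.46 to 9.55, and Cck was lower (30.5 and 29.5% of all genes were higher and lower). Against Grik, 9 of 10 differed, beside 57.3% of all genes. The same 6 and Penk were higher in SST, and Cck and Vip were lower (29.2 and 28.1% of all genes). The excitatory populations differed from each other in 6 of 10 precursors, beside 42% of all genes, with Cort and Penk higher in CamK (20.9% of all genes) and Npy, Tac1, Crh and Vip higher in Grik (21.1%). In limma-voom this count was 3, without Cort, Tac1 and Crh. The test was edgeR's quasi-likelihood test over all genes, with an adjusted p threshold of 0.05. In bulk RNA, fewer cells of a type and less RNA per cell cannot be told apart.

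**Figure D1:**
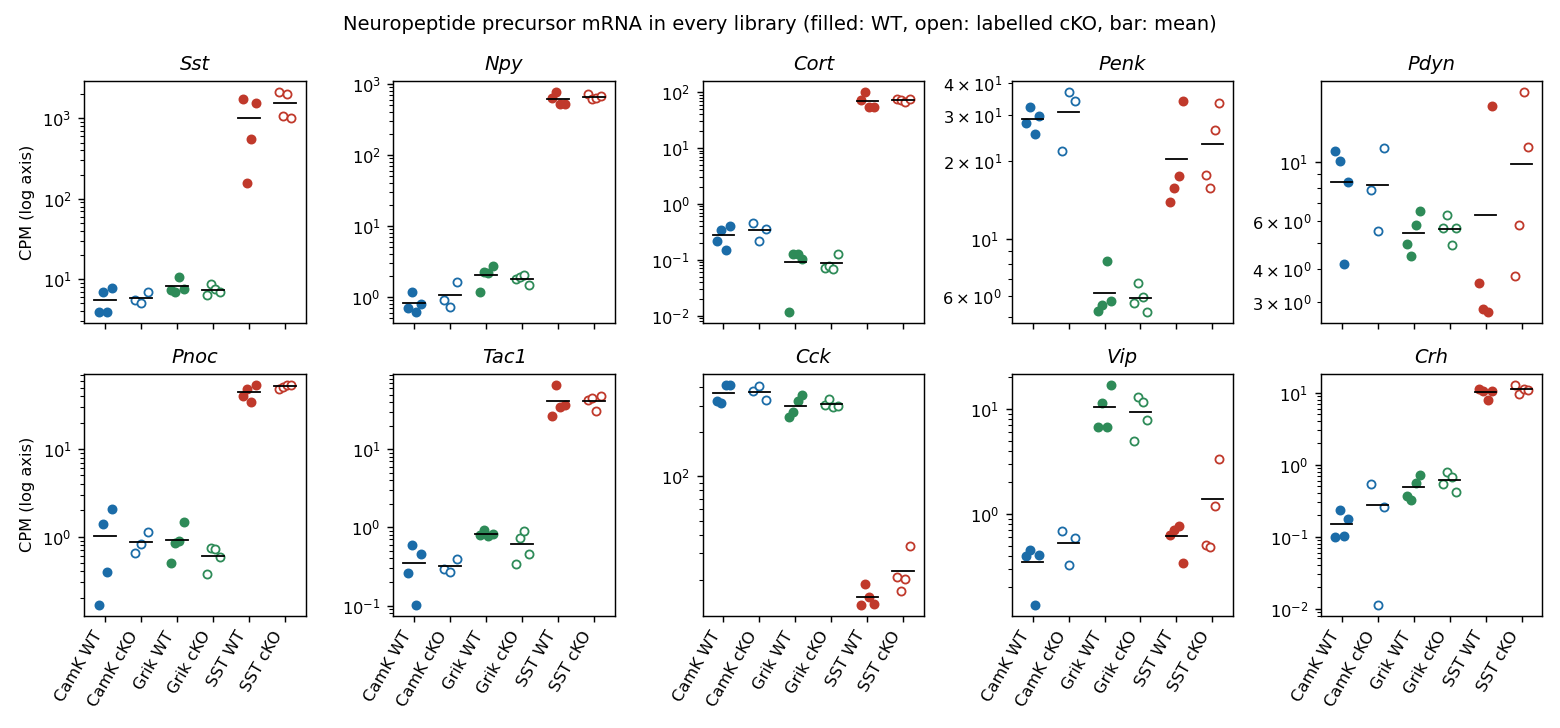
Level of each neuropeptide precursor in every library, in CPM on a log axis whose range differs between panels. Points are libraries, filled for WT and open for those labelled cKO, and bars are group means. Sst, Npy, Cort, Pnoc, Tac1 and Crh are high in SST, Cck is high in both excitatory populations, and Vip is highest in Grik.

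The somatostatin family and neuropeptide Y made up most of the precursor mRNA of SST libraries. Sst was 1720.3, 159, 554 and 1557 CPM in SST WT libraries 1, 2, 3 and 5. It was 2125, 1079.7, 2018 and 1009.9 CPM in SST libraries 3, 4, 5 and 7 labelled cKO. All were far above the 3.87 to 7.70 CPM of CamK WT and the 6.93 to 10.6 CPM of Grik WT, but SST WT library 2 lay a factor of 10.8 below the highest WT library. Since the population is defined by somatostatin, its high Sst is a check of the label and not a result, and the log2 fold change was 7.48 (SE 0.65) over CamK and 6.94 (SE 0.63) over Grik in WT. Without SST WT library 2 these values were 7.84 and 7.29.

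Cort was likewise highest in SST, but lowest in Grik rather than in CamK. Its level was 72.5, 101, 54.3 and 53.8 CPM in the SST WT libraries, while CamK WT held 0.220, 0.343, 0.147 and 0.405 CPM and Grik WT 0.0115, 0.127, 0.126 and 0.105 CPM. The 3 groups did not overlap, and the lowest Grik value was a single read. The SST excess was 7.97 (SE 0.29) over CamK and 9.55 (SE 0.33) over Grik on the log2 scale, with edgeR adjusted p of 7.17e-16 and 2.27e-16. Between the excitatory populations Cort was 1.58 (SE 0.47) higher in CamK (adjusted p 0.00890, but 0.165 in limma-voom), on 13 to 37 reads per CamK WT library and 1 to 11 per Grik WT library.

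Npy stood in the opposite order in the excitatory cells. SST WT libraries held 630.2, 769, 526 and 519.9 CPM of Npy, and SST libraries labelled cKO held 715, 623, 625 and 679.8 CPM. CamK WT held 0.693, 1.16, 0.610 and 0.788 CPM, all below the 1.18, 2.22, 2.16 and 2.71 CPM of Grik WT. The log2 difference between SST and CamK WT, 9.55 (SE 0.28), was the largest of any precursor in any WT comparison together with that of Cort against Grik. CamK was 1.34 below Grik on the log2 scale (fold change -1.34, SE 0.26, adjusted p 0.000257).

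The opioid family split by member. Pnoc was 40.2, 48.3, 34.9 and 54.2 CPM in SST WT libraries, against 0.165, 1.38, 0.395 and 2.09 CPM in CamK WT and 0.492, 0.846, 0.881 and 1.48 CPM in Grik WT. SST stood above both without overlap (log2 fold changes 5.46, SE 0.47, and 5.59, SE 0.48), and the excitatory populations overlapped (0.13, SE 0.48). Penk had its highest WT mean in CamK, at 28.0, 32.1, 25.4 and 29.8 CPM, and its lowest in Grik, at 5.28, 5.55, 8.17 and 5.74 CPM. SST WT libraries spanned both sides of the CamK range, at 13.8, 15.7, 17.5 and 34.1 CPM. Penk was therefore higher in CamK than Grik (log2 2.22, SE 0.28, adjusted p 1.67e-06) and in SST than Grik (1.71, SE 0.27, adjusted p 1.74e-05). The SST to CamK difference of -0.51 (SE 0.26, adjusted p 0.100) did not pass. Without SST WT library 5, the highest, it was -0.88 with an adjusted p of 0.00177. The SST to CamK difference also passed with limma-voom and with the replicate number as a block (values under the processing section). The annotation places A830012C17Rik over Penk on the other strand, and without a stated strand setting reads of the pair cannot be told apart.

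Pdyn differed least between the populations. CamK WT libraries held 10.97, 10.01, 4.17 and 8.42 CPM, Grik WT libraries 4.94, 4.46, 5.83 and 6.57 CPM, and SST WT libraries 3.54, 2.84, 2.75 and 16.1 CPM. The 3 groups overlapped, and none of the 3 WT comparisons passed for Pdyn in edgeR (log2 fold changes -0.41, SE 0.53, for SST over CamK, 0.21, SE 0.53, for SST over Grik and 0.62, SE 0.54, for CamK over Grik). SST WT library 5 decided the first and second of these. Without it, Pdyn was lower in SST than CamK by a log2 fold change of -1.46 (adjusted p 0.00565), and the SST to Grik difference turned to -0.84 (adjusted p 0.0942). With all libraries kept, limma-voom also called Pdyn lower in SST than CamK (values under the processing section).

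Tac1 and Crh were also interneuron precursors here, with a low and ordered remainder in the excitatory libraries. For Tac1, SST WT libraries gave 26.4, 66.7, 34.6 and 36.8 CPM, Grik WT libraries 0.802, 0.939, 0.767 and 0.820 CPM, and CamK WT libraries 0.264, 0.587, 0.102 and 0.459 CPM. No 2 of these groups overlapped. The SST excess was 6.86 (SE 0.39) over CamK and 5.63 (SE 0.35) over Grik on the log2 scale, and the CamK to Grik difference was -1.23 (SE 0.40, adjusted p 0.0188). Tac1 is also known from parvalbumin interneurons, and the other 9 genes of a parvalbumin interneuron list summed to 1317 to 1655 CPM in SST WT, 253 to 276 CPM in Grik WT and 109.8 to 138 CPM in CamK WT. The list went both ways between Grik and CamK. Kcnc1 and Kcnc2 had means of 132 and 109 CPM in Grik WT and 65.1 and 37.3 CPM in CamK WT. The means of Erbb4, Plcxd3 and Cox6a2 were also higher in Grik WT. Pvalb was 1.05 CPM in both. Syt2 and Rbp4 were lower in Grik WT, at 1.97 and 0.624 CPM against 15.95 and 2.13 CPM in CamK WT. The CamK to Grik call of Tac1 rested on single libraries: the adjusted p was 0.0502 without CamK WT library 2 and 0.0556 without CamK WT library 4. Crh was 11.2, 10.5, 8.003 and 10.6 CPM in SST WT, 0.366, 0.324, 0.561 and 0.715 CPM in Grik WT and 0.0991, 0.233, 0.102 and 0.175 CPM in CamK WT, again without overlap. The log2 fold changes of Crh were 6.03 (SE 0.45), 4.35 (SE 0.40) and -1.68 (SE 0.48, adjusted p 0.00692) for SST over CamK, SST over Grik and CamK over Grik. The CamK value rests on 9 to 21 reads per library. In limma-voom the CamK to Grik calls of Tac1 and Crh were lost (adjusted p 0.178 and 0.0747).

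Cck was highest in both excitatory populations and Vip in Grik alone. Cck was 322, 312, 415 and 410.5 CPM in CamK WT and 249, 272, 322 and 354 CPM in Grik WT, against 13.4, 18.8, 15.3 and 13.8 CPM in SST WT. The excitatory groups overlapped (log2 0.29, SE 0.16, adjusted p 0.172), and SST lay below both by log2 fold changes of -4.57 (SE 0.19) and -4.29 (SE 0.19). Vip, known in the hippocampus from interneurons that inhibit other interneurons, was 6.81, 11.5, 6.79 and 17.1 CPM in Grik WT. CamK WT held 0.396, 0.454, 0.136 and 0.405 CPM and SST WT 0.626, 0.702, 0.772 and 0.342 CPM, so that Grik stood apart and the other groups overlapped. The difference was -4.91 (SE 0.61, adjusted p 2.01e-06) for CamK over Grik and -4.11 (SE 0.57, adjusted p 3.95e-06) for SST over Grik, both log2. The other 9 genes of a list of VIP and CCK interneuron markers summed to 579 to 617 CPM in Grik WT, 489 to 647 CPM in SST WT and 143 to 243 CPM in CamK WT. Of the SST sum, Crhbp made up 336 CPM on average. The 8 of these genes that passed the filter on low counts went both ways between SST and Grik WT. Calb2 (-3.12), Prox1 (-2.15), Adarb2 (-1.79) and Cnr1 (-0.51) were higher in Grik, and Crhbp (9.20), Htr3a (1.85), Sncg (1.68) and Nr2f2 (0.70) higher in SST, all log2. Calb2, the gene of calretinin, stood at 311 to 347 CPM in Grik WT, 30.3 to 51.8 CPM in SST WT and 7.48 to 15.8 CPM in CamK WT. The summed level of 20 non-neuronal markers was 694 to 922 CPM in Grik WT, 329 to 701 CPM in SST WT and 150 to 231 CPM in CamK WT, so that Grik stood above CamK and overlapped SST at the edge. The part of other cells in the Vip level was not tested.

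**Figure D2:**
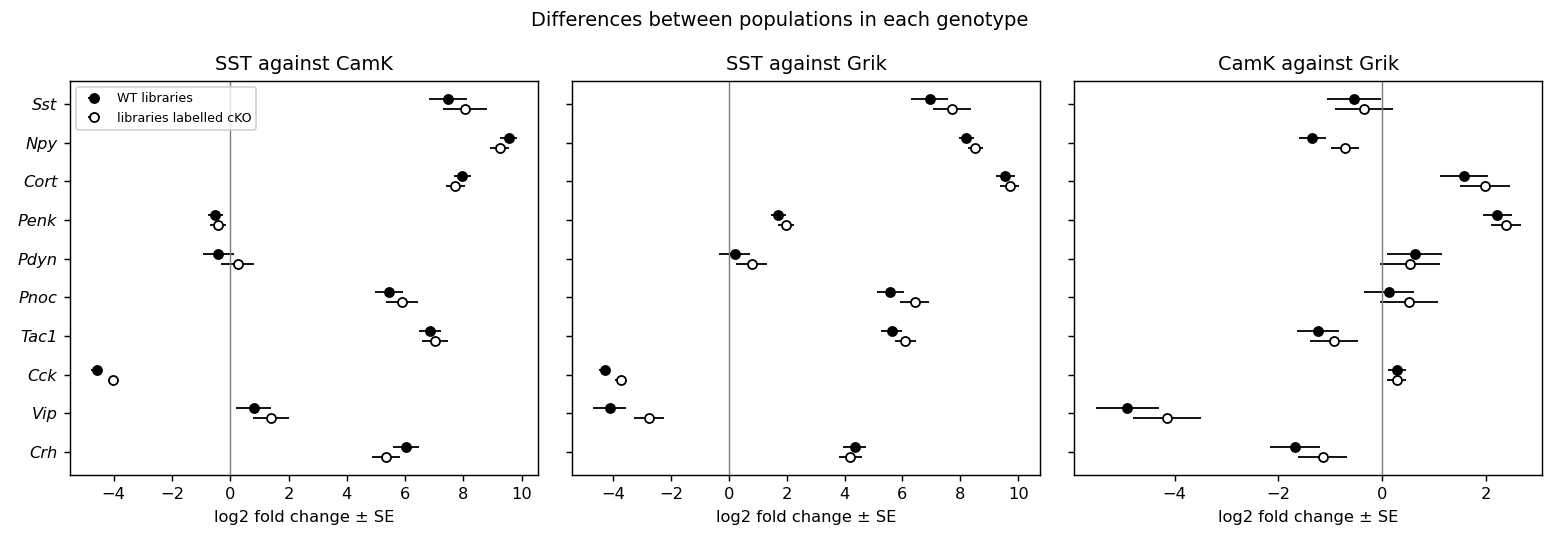
Log2 fold change of each precursor between populations with its standard error, for WT libraries (filled) and for libraries labelled cKO (open), which share no library. Both genotypes place Sst, Npy, Cort, Pnoc, Tac1 and Crh above 0 and Cck below 0 in SST, and Vip furthest below 0 in CamK against Grik.

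The libraries labelled cKO share no library with the WT comparison, and their population differences stood beside it as follows. SST differed from CamK in 7 of 10 precursors (56.4% of all genes) and from Grik in 9 of 10 (57.9%), and CamK differed from Grik in 4 of 10 (35.7%). The SST to CamK calls were again Sst, Npy, Cort, Pnoc, Tac1 and Crh higher, by log2 fold changes of 5.34 to 9.25, and Cck lower (-4.02, SE 0.19), beside 29.4 and 26.9% of all genes. Against Grik 7 were higher and 2 lower, beside 30 and 27.9%. In the excitatory comparison Cort (1.98, SE 0.48), Penk (2.39, SE 0.29), Vip (-4.14, SE 0.65) and Npy (-0.72, SE 0.27, adjusted p 0.0459) passed, 2 in each direction, beside 17.4% of all genes higher in CamK and 18.3% lower. The Npy ranges overlapped there, and its call was lost in 8 of 14 alternatives, while Tac1 (-0.93, SE 0.46) and Crh (-1.14, SE 0.47) did not pass.

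Ranked per length, as reads per kb of exon per 1000000 reads, Cck led the excitatory libraries at 279.6 ± 42.6 (SD, n = 4) in CamK WT and 229 ± 36.3 (SD, n = 4) in Grik WT. In CamK WT it was followed by Penk at 17.7, Sst at 7.75, Pdyn at 2.91 and Npy at 1.44, of which only Pdyn and Npy overlapped in range. Grik WT placed Sst next at 11.3 and then Penk, Npy and Vip at 3.79, 3.65 and 3.10, whose ranges overlapped with their neighbours. In SST WT the order per length was Sst at 1384 ± 1055, Npy at 1080.0 ± 207 and Cort at 104 ± 32.5 (SD, n = 4 each). The Sst and Npy ranges overlapped, so these did not differ beyond their spread, while Cort stood below Npy and above all others without overlap. Pnoc, Penk, Tac1 and Cck followed at 20.6, 12.4, 12.1 and 11.7, each overlapping the next, then Crh at 7.63, Pdyn at 2.18 and Vip last at 0.179. The Pdyn mean rests on library 5, at 5.58 against 0.953 to 1.23 in the other 3.

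The small amount of interneuron precursor in the excitatory libraries was set beside the GABAergic markers. In CamK WT the mean level, as a percentage of that in SST WT, was 0.560 for Sst, 0.133 for Npy, 0.397 for Cort, 2.27 for Pnoc, 0.858 for Tac1 and 1.51 for Crh, and the 10 GABAergic markers gave 0.294 to 4.37%. In Grik WT these values were 0.815, 0.338, 0.132, 2.08, 2.02 and 4.88%, with the markers at 0.302 to 2.83%. Npy in CamK and Cort in Grik lay below every marker of the list, and Crh in Grik lay above all of them. By the same measure Cck stood at 2383% in CamK and 1954% in Grik, Vip at 57.0 and 1727%, Penk at 142 and 30.5% and Pdyn at 133 and 86.4%. Without SST WT library 5 the Pdyn values were 276 and 179%, so that Grik turned from below to above SST, and without CamK WT library 5 the Pnoc value in CamK was 1.46%. The part that other cells had in these levels was not tested.

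Spread between replicate libraries separated the precursors within SST. The within-group SD of log2 CPM over the 8 SST libraries was 1.20 for Sst, 1.11 for Pdyn, 0.98 for Vip and 0.54 for Penk, beside a median of 0.15 over 12958 genes with a mean of at least 1 CPM. Only 0.401% of those genes spread more than Sst and 0.448% more than Pdyn. Npy (0.20), Pnoc (0.21), Crh (0.19) and Cort (0.31) were far steadier. In CamK the widest were Crh (1.42), whose lowest library held 1 read, and Pnoc (1.27), and in Grik Cort (0.78) and Vip (0.64).

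**Figure D3:**
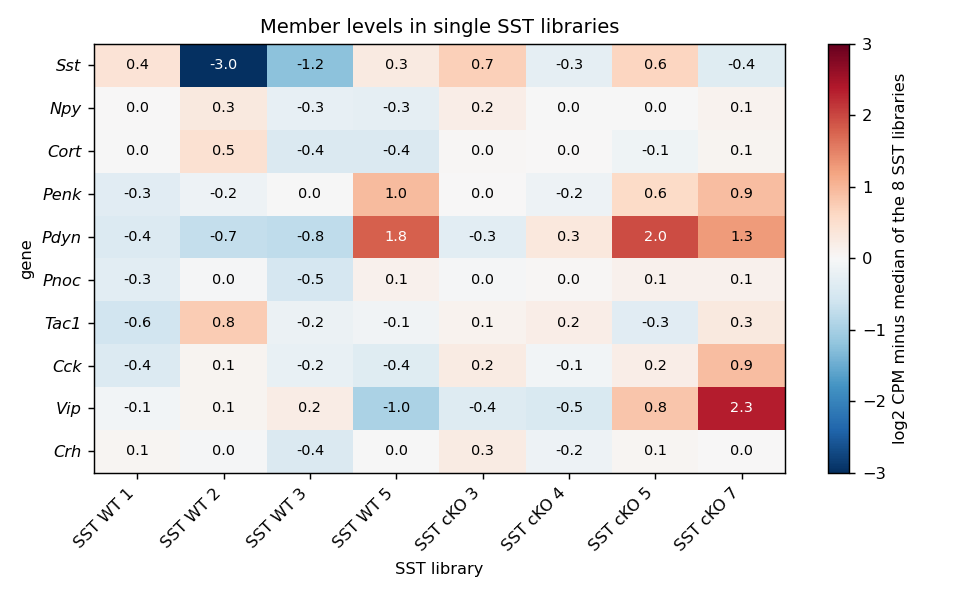
Level of each precursor in each SST library as log2 CPM minus the median of the 8 SST libraries, in colour and as printed numbers. Sst is lowest in SST WT 2, Pdyn is high in SST WT 5, cKO 5 and cKO 7, and Vip is highest in cKO 7, while Npy, Pnoc and Crh vary little.

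Single SST libraries stood apart for different precursors. SST WT library 2, lowest in Sst at 159 CPM, was the highest of the WT libraries in Npy (769 CPM), Cort (101 CPM) and Tac1 (66.7 CPM). Its GABAergic marker sum of 7082 CPM lay within the range of the other SST libraries. It was also the lowest SST library in the summed level of 8 choroid plexus markers, a list chosen after the data were seen, at 7.74 CPM against 67.2 to 262 CPM elsewhere, with Ttr at 2.03 CPM against 55.3 to 234 CPM. Pdyn was highest in SST WT library 5 and SST libraries 5 and 7 labelled cKO, at 16.1, 18.1 and 11.4 CPM, and at most 5.83 CPM in the other 5. The same 3 libraries were the highest in Penk, at 34.1, 26.3 and 33.4 CPM. The summed level of 10 striatal projection neuron markers, also listed after the data were seen, was 254 to 291 CPM over the 8 SST libraries and was 265, 256 and 291 CPM in those 3. Most of this sum came from Pde10a and Adcy5, with means of 111 and 88.1 CPM in SST WT. Their means were 110 and 81.9 CPM in CamK WT and 103 and 78.1 CPM in Grik WT, so the sum cannot show a part of striatal cells. What part other cells had in these differences was not tested.

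**Figure D4:**
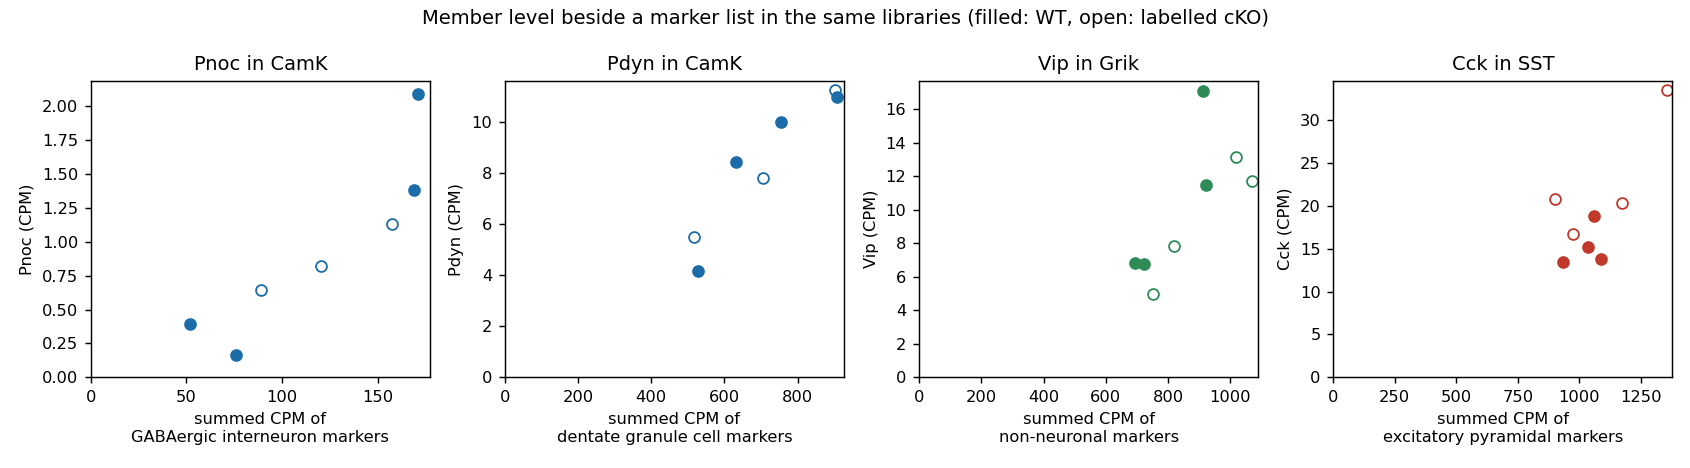
Level of a precursor against the summed level of a marker list in the same libraries, both in CPM, for Pnoc in CamK, Pdyn in CamK, Vip in Grik and Cck in SST. Points are libraries, filled for WT and open for those labelled cKO, and the marker sums leave out the precursors themselves. In the CamK and Grik panels the lowest precursor levels sit at low marker sums, and in SST the highest Cck sits at the highest sum and the next highest at the lowest.

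Some precursor levels in the excitatory populations were set beside marker lists of other cells. The pairs of precursor and list were picked from many possible ones, and the other pairs are not reported here. Pnoc in CamK was 1.38 and 2.09 CPM in WT libraries 3 and 5, where the GABAergic marker sum was 169 and 171 CPM, and 0.165 and 0.395 CPM in WT libraries 2 and 4, where it was 75.7 and 51.8 CPM. Sst in CamK was likewise 6.84 and 7.70 CPM in the former and 3.87 and 3.94 CPM in the latter. In CamK libraries 4, 5 and 6 labelled cKO the GABAergic marker sum was 88.9, 120 and 157 CPM. Pnoc was 0.647, 0.822 and 1.13 CPM there, in the order of the sum. Sst was 5.54, 5.06 and 6.98 CPM, not in that order. Pdyn in CamK was 4.17 and 5.51 CPM in WT library 4 and library 5 labelled cKO, which also had the lowest summed levels of 9 dentate granule cell markers, 529 and 517 CPM, with 631 to 908 CPM in the other 5. Calb1 and Fam163b weighed most in this sum, with means of 203 and 185 CPM in CamK WT. The list went both ways between SST and CamK WT. Trpc6 and Ablim3 were higher in SST, Prox1, C1ql2, Dsp, Lct, Fam163b and Tdo2 were lower, and Calb1 did not pass. Vip in Grik was lowest in library 1 labelled cKO, WT libraries 3 and 5 and library 4 labelled cKO, at 4.98 to 7.86 CPM, and these were the 4 libraries with the lowest non-neuronal marker sums, 694 to 818 CPM, against 911 to 1071 CPM. The highest Vip, 17.1 CPM, was in the lowest of those latter 4 in non-neuronal sum. These are descriptions over 7 or 8 libraries of both genotypes, and the part of other cells in them was not tested.

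None of the 10 precursors differed between the libraries labelled cKO and WT in CamK, Grik or SST by edgeR's quasi-likelihood test, where 0.0106% of all genes did in each population. The count was also 0 in each population with DESeq2 and with limma-voom. At an unadjusted p under 0.05 it was 0 in CamK, 0 in Grik and 2 in SST, beside 7.05, 4.88 and 5.85% of all genes. The log2 fold changes ran from -0.22 to 0.84 in CamK, from -0.60 to 0.30 in Grik and from 0.02 to 1.19 in SST. They were positive for 7, 3 and 10 of the 10 precursors, with medians of 0.08, -0.11 and 0.21 beside medians of -0.00142, 0.00353 and 0.0225 over all genes. The precursors share the same libraries, and these counts of signs are not read as a shift of the precursors. In SST the sign of Cort, Penk and Tac1 turned on leaving out single libraries. The ranges of WT and labelled cKO libraries overlapped for each precursor in each population, where the groups did not overlap for 6.75, 4.59 and 2.7% of all genes.

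**Figure D5:**
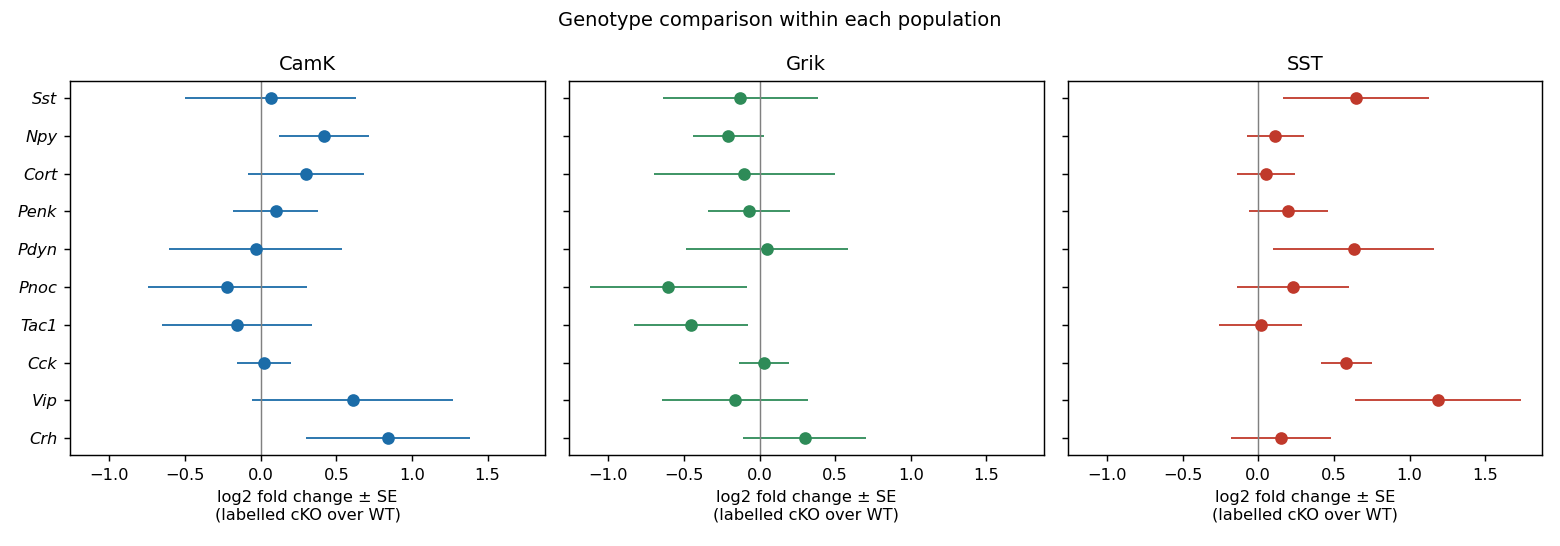
Log2 fold change of each precursor between libraries labelled cKO and WT in CamK, Grik and SST, with its standard error. Most error bars cross 0, and Cck and Vip in SST lie furthest from 0 relative to their errors.

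In SST the precursors with an unadjusted p under 0.05 were Cck and Vip. Cck was 20.9, 16.7, 20.3 and 33.6 CPM in SST libraries 3, 4, 5 and 7 labelled cKO, against 13.4 to 18.8 CPM in WT (log2 0.58, SE 0.17, p 0.00244, adjusted p 0.833). Library 4 labelled cKO lay within the WT range, and library 7 labelled cKO, highest in Cck, was also highest in the pyramidal marker sum, at 1357 CPM against 902 to 1172.5 CPM in the other SST libraries. Library 3 labelled cKO, second in Cck, had the lowest pyramidal marker sum, 902 CPM. Without library 7 labelled cKO the Cck value was 0.34. Vip was 0.505, 0.485, 1.19 and 3.37 CPM in the libraries labelled cKO and 0.342 to 0.772 CPM in WT (log2 1.19, SE 0.55, p 0.0433, adjusted p 0.833), and without library 7 it was 0.25. That library also had the highest non-neuronal marker sum of the SST libraries, 1084 CPM against 281 to 937 CPM. Of the lists in SST, 9 of 10 pyramidal markers and 15 of 20 non-neuronal markers had positive genotype differences, with medians of 0.33 and 0.29 (the SST median over all genes is given above). Of these markers, 0 passed in edgeR, where 0.0106% of all genes did. At an unadjusted p under 0.05 there were 3 pyramidal and 1 non-neuronal markers, beside 5.85% of all genes. The counts of signs are not read as a shift of these lists, whose part in the Cck and Vip values was not tested.

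The precise members set narrow limits on a genotype difference and the variable ones wide limits. For Cort and Npy in SST the log2 differences were 0.05 (SE 0.19) and 0.11 (SE 0.19), and for Cck they were 0.02 (SE 0.18) in CamK and 0.03 (SE 0.16) in Grik. Sst in SST gave 0.64 (SE 0.48, adjusted p 0.86), and 0.26 without SST WT library 2. Vip and Crh in CamK gave 0.61 (SE 0.66) and 0.84 (SE 0.54), on 12 to 61 and 1 to 49 reads per library. The difference of the genotype effect between populations was tested for each pair of populations, and 0 of 10 precursors passed in edgeR for any pair, where 0, 0.0106 and 0.00531% of all genes did for SST minus CamK, SST minus Grik and CamK minus Grik. The counts were also 0 with DESeq2 and limma-voom. Of the 10, Cck alone had an unadjusted p under 0.05 for SST minus CamK and SST minus Grik (7.85 and 3.86% of all genes), and 0 had for CamK minus Grik (6.5%). The SST difference in Cck was 0.56 (SE 0.24, p 0.0335) above that in CamK and 0.55 (SE 0.23, p 0.0293) above that in Grik.

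The machinery that makes and packs peptides was examined as a list of 22 genes for processing enzymes, granins and dense-core vesicle proteins, all of which were tested. In WT, 13 were higher and 5 lower in SST than in CamK (median log2 fold change 0.44, beside 0.02 over all genes, of which 30.5% were higher and 29.5% lower), and 12 were higher and 7 lower in SST than in Grik (median 0.44, beside 0.03 over all genes, with 29.2 and 28.1% higher and lower). Rab3b, a vesicle GTPase, had the largest excess in SST, 4.15 (SE 0.20) over CamK and 6.32 (SE 0.23) over Grik on the log2 scale. Baiap3, which acts in dense-core vesicle trafficking, followed with 3.57 (SE 0.39) and 3.25 (SE 0.38), then Qpct, which forms the pyroglutamate end of some peptides, with 2.86 (SE 0.14) over CamK, and Pcsk1n, the inhibitor precursor of convertase 1, with 1.62 (SE 0.35) over Grik. Lower in SST were Pcsk2, the gene of prohormone convertase 2 (-2.10, SE 0.09, and -2.59, SE 0.09), and the granin Chgb (-1.05, SE 0.11, and -2.42, SE 0.11). The vesicle priming factor Cadps2 was lower than in CamK (-3.18, SE 0.13), and the convertase gene Pcsk5 lower than in Grik (-1.48, SE 0.14). Between the excitatory populations 3 were higher in CamK and 9 in Grik (20.9 and 21.1% of all genes), led by Rab3b (2.17, SE 0.19), Cadps2 (1.73, SE 0.12) and Scg5 (0.35, SE 0.12) in CamK and by Qpct (-1.50, SE 0.14), Chgb (-1.37, SE 0.11) and Cadps (-1.17, SE 0.12) in Grik. The Scg5 call was lost without CamK WT library 5 (0.21, adjusted p 0.160), and also without Grik WT library 3 or 4. In the genotype comparisons 0 of the 22 passed in edgeR, DESeq2 or limma-voom, with 7, 0 and 3 at an unadjusted p under 0.05 in edgeR (7.05, 4.88 and 5.85% of all genes) and 19, 17 and 15 positive differences in CamK, Grik and SST. The medians over all genes are given above, and these counts of signs are not read as a shift of the list.

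Other precursors outside the 10 were followed in a list of 41, of which 40 were matched in the count table and 22 passed the filter on low counts. In WT, 9 were higher and 4 lower in SST than in CamK, 9 higher and 7 lower in SST than in Grik, and 5 higher and 7 lower in CamK than in Grik. Over all genes the shares higher and lower were 30.5 and 29.5%, 29.2 and 28.1%, and 20.9 and 21.1% in the same order. Adcyap1, the gene of PACAP, a peptide related to that of Vip, was lower in SST than in CamK (-3.97, SE 0.34) and Grik (-5.58, SE 0.35). Nppc, the gene of C-type natriuretic peptide, was higher in SST (2.57, SE 0.16, and 5.10, SE 0.19). The gastrin-releasing peptide gene Grp was lower in SST than in CamK (-3.43, SE 0.19) and Grik (-1.13, SE 0.18), and Cartpt was higher in SST than in CamK (2.03, SE 0.27). Calca and Nts, the genes of calcitonin gene-related peptide and neurotensin, were higher in SST than in Grik (4.24, SE 0.37, and 2.20, SE 0.78). The Nts call was lost without SST WT library 5 (1.24, adjusted p 0.161), and also without Grik WT library 3 or 5. Tac2, the tachykinin relative of Tac1, was like Vip highest in Grik, with -2.25 (SE 0.41) for SST and -3.66 (SE 0.45) for CamK, and it was higher in SST than in CamK (1.41, SE 0.45). Nts, Calca and Nppc were higher in CamK than in Grik (3.51, SE 0.81, 3.07, SE 0.37, and 2.53, SE 0.18), and Adcyap1 was lower (-1.61, SE 0.28). In the genotype comparisons 0 of the 22 passed in edgeR, DESeq2 or limma-voom, with 2, 1 and 4 at an unadjusted p under 0.05 in edgeR in CamK, Grik and SST (7.05, 4.88 and 5.85% of all genes).

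The genes whose log2 CPM was closest to that of each precursor over the 23 libraries, among 12965 genes, were listed as a description. The 23 points share 3 populations and the same libraries, so no p is given. Pearson's r was 0.98 for Sst with Lypd6 and Ifit2, and 0.993 to 0.997 for Npy with Maf and Trmt2b, Cort with Rgs10 and Zfp385a, Pnoc with Dlx2 and Nxph1, Tac1 with Kcna6 and Cntnap4, and Cck with Rasal1 and Chrm1. It was 0.97 for Crh with Cplx1 and Pxdc1, 0.98 for Vip with Cryab and 0.97 with Csrp1, and 0.96 for Penk with Gabrd and Cyb561. For Pdyn the highest value was 0.79, with Adra2a.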

How the data were processed

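The deposited table holds read counts per Ensembl gene, 1 column per library, made by the authors with Trimmomatic, STAR and GRCm38, per the submitters' processing notes; versions, the strand setting and filters are not given in the sources used here. Columns were matched to samples by name. The 4 summary categories that name no gene, 12.4 to 18.4% of reads, were left out. Of 45706 gene IDs, 45143 matched GENCODE M21 (GRCm38), from which exon lengths were taken. Replicate pairs differed by more than sampling noise (chi-square per degree of freedom 8.27 to 198 over 33 pairs).

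All 23 libraries were fitted together with edgeR 4.0.16 in R 4.3.3 (filterByExpr, 18823 genes; TMM; glmQLFit with robust estimation; glmQLFTest; 17 residual degrees of freedom), and p-values were adjusted by Benjamini-Hochberg over all genes, with a threshold of 0.05. The SE is the log2 fold change divided by the square root of F. CPM are TMM-scaled counts per 1000000 reads. The fitting code was tested on simulated data. The members and lists were chosen with earlier results of these data known, and the choroid plexus and striatal lists after seeing these values. The genes named are the 10 members, the 2 genes most correlated with each in log2 CPM (prior count 2), up to 3 called genes per direction of the processing and precursor lists with a mean of at least 1 CPM, and markers; a few genes under this rule are not reported here.

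The alternatives tried were scaling by relative log expression, fitting every gene with a read, requiring 3 libraries with at least 1 CPM, DESeq2 1.42.0, limma-voom (limma 3.58.1) with sample weights, a fit of the compared populations alone, the replicate number as a block, and leaving out each library.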

Additional observations from a re-analysis of the deposited data

Results flagged for a closer look

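In 3 of 50 groups of 4 libraries examined (10 precursors in the 5 groups of that size), 1 library lay far from the other 3 by Dixon's gap test, and chance does this in about 1 in 20 groups. Cort in Grik library 4 labelled cKO stood at 0.127 CPM, against 0.0691 to 0.0784 CPM in the others. Penk in Grik WT library 5 stood at 8.17 CPM, against 5.28 to 5.74 CPM. Pdyn in SST WT library 5 stood at 16.1 CPM, against 2.75 to 3.54 CPM. The cause of these values was not tested.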

How the results depend on the processing

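Of 42 calls of a precursor, 38 held in every alternative run and 4 were lost in some: Cort, Tac1 and Crh in WT CamK against Grik, and Npy in the libraries labelled cKO. WT CamK against Grik had 3 precursors called with limma-voom in place of 6. Calls gained were Penk and Pdyn in WT SST against CamK with limma-voom (-0.72 and -1.15, adjusted p 0.00363 and 0.0306), and Vip in labelled cKO SST against CamK with DESeq2 (1.38, adjusted p 0.0367) and without SST library 3 or 4 labelled cKO (1.67 and 1.66, adjusted p 0.02515 and 0.0251; without library 7 it was 0.45). With only the populations compared in the fit, Sst and Cck passed in WT CamK against Grik (adjusted p 0.0395 and 0.0454). Without CamK library 4 labelled cKO, Crh passed in CamK against Grik (-2.12, adjusted p 0.00277).

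Signs of uncalled differences turned as follows, on the log2 scale, and the cause was not tested. With limma-voom the labelled cKO to WT difference was -0.11 for Penk and 0.22 for Pnoc in CamK, 0.031 for Cort in Grik and -0.094 for Tac1 in SST, and WT gave -0.43 for Pdyn in SST against Grik and -0.30 for Pnoc in CamK against Grik. With only the populations compared, Tac1 in SST was -0.0019. The replicate numbers were not taken as pairs, since the deviations of same-numbered libraries correlated at -0.0999 to 0.129 over 6 pairs of WT and labelled cKO libraries in a population, and at -0.068 to 0.066 over 13 pairs of populations in a genotype. With the replicate block the difference was -0.11 for Sst, -0.070 for Penk and -0.013 for Cck in CamK, 0.19 for Sst, 0.23 for Penk and 0.019 for Vip in Grik, and -0.061 for Penk and -0.034 for Tac1 in SST. The block gave -0.060 for Pdyn and -0.18 for Pnoc in labelled cKO CamK against Grik, and Penk passed in SST against CamK in both genotypes (-0.57 and -0.56, adjusted p 0.0026 and 0.0114).

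Leaving out 1 library at a time, labelled cKO to WT differences that turned ranged in CamK from -0.055 to 0.10 for Cck, -0.14 to 1.40 for Crh, -0.33 to 0.18 for Pdyn, -0.047 to 0.30 for Penk, -0.56 to 0.42 for Pnoc, -0.078 to 0.26 for Sst and -0.45 to 0.21 for Tac1. In Grik they ranged from -0.047 to 0.12 for Cck, -0.47 to 0.090 for Cort, -0.036 to 0.14 for Pdyn, -0.15 to 0.088 for Penk, -0.22 to 0.019 for Sst and -0.36 to 0.16 for Vip, and in SST from -0.057 to 0.25 for Cort, -0.027 to 0.57 for Penk and -0.15 to 0.33 for Tac1. Between populations, Pnoc ranged from -0.51 to 0.48 in WT CamK against Grik, Pdyn from -0.84 to 0.46 in WT SST against Grik, and Pdyn from -0.23 to 0.55 in labelled cKO SST against CamK.

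Over all genes, 2 were called between genotypes in each of CamK, Grik and SST, against 14, 14 and 11 with DESeq2, 6, 39 and 0 with limma-voom and 1, 5 and 0 with only the populations compared. The block gave 4 in CamK and the absence of a filter 1 in SST. Leaving out libraries gave 1 to 4, 1 to 9 and 0 to 2. The counts for SST minus CamK, SST minus Grik and CamK minus Grik were 0, 2 and 1, against 10, 4 and 2 with DESeq2, 1 for SST minus CamK with limma-voom and 0 for CamK minus Grik with the block. Mean levels moved by less than 1 SD under relative log expression scaling. On leaving out 1 library they ranged from 3.04 to 7.49 CPM for Pdyn in SST WT, 0.136 to 0.404 CPM for Crh in CamK labelled cKO, 0.648 to 1.29 CPM for Pnoc in CamK WT and 0.726 to 1.69 CPM for Vip in SST labelled cKO. Depth limits precursors with few reads, such as Cort in Grik and Crh in CamK, where a library held 1 read.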

Other observations

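Among precursors outside the 10, Nts in SST varied with the library as Pdyn did in part. It was 12.3 CPM in SST WT library 5, the highest WT library in Pdyn, and 0.478 to 4.46 CPM in the other WT libraries. In SST libraries 5 and 7 labelled cKO it was 4.74 and 4.04 CPM, and in libraries 3 and 4 labelled cKO it was 0.524 and 0.541 CPM. Gal, the galanin gene, was 1.99 to 2.31 CPM in Grik WT and 1.82 to 2.07 CPM in Grik libraries labelled cKO, above all CamK and SST libraries, which held at most 0.234 CPM. These genes were picked for their library values after these were seen, and the differences between single libraries were not tested.

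Of a list of somatostatin interneuron markers, the 9 other than Sst summed to 1316 to 1369 CPM in SST WT, 135 to 154 CPM in CamK WT and 157 to 167 CPM in Grik WT. The 9 neurogliaform markers other than Npy went both ways. Reln and Ndnf had means of 276 and 13.5 CPM in SST WT, 8.72 and 1.26 CPM in CamK WT and 3.97 and 0.384 CPM in Grik WT. Cacna2d1, Kit and Car4 had means of 13.6, 9.19 and 3.30 CPM in SST WT, 116, 64.7 and 20.5 CPM in CamK WT and 132, 115 and 56.4 CPM in Grik WT. Lamp5 was likewise lower in SST WT (9.18 CPM) than in CamK WT (41.7 CPM) and Grik WT (32.7 CPM). For Id2, Gabrd and Nos1 the SST WT mean lay between those of CamK WT and Grik WT.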
